A study of Mus musculus with 64 samples.

Results

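The Toll-like receptors of retinal microglia were followed in naive retina and at day 12 and day 28 after injection of a null AAV2 vector. Members were the 10 genes *Tlr1* to *Tlr9* and *Tlr13*, matched by symbol among the 25239 genes of the batch-corrected count table, and all 10 passed the filter on low counts that left 13584 genes for testing. The libraries came from male and female C57BL/6 mice of the genotype Cx3cr1CreER:R26-tdTomato +/-, aged 3, 9 or 18 months. All groups, naive ones included, carried both alleles and had received tamoxifen eye drops some weeks earlier, which switched on tdTomato in cells that expressed *Cx3cr1*, so the sort could also take other cells that had used this promoter. Injected eyes received an intravitreal dose of 1E10 genome copies of AAV2.CMV.null.WPRE.io2, a vector without a transgene whose genome carries io2, an inhibitory oligonucleotide sequence directed at TLR9. From 1 retina of each mouse, 600 tdTomato-high cells were sorted into lysis buffer and their polyadenylated RNA was sequenced. The 62 libraries used comprised 19 naive, 22 day 12 and 21 day 28 retinas. By age these were 7 naive, 8 day 12 and 7 day 28 retinas at 3 months, 5, 7 and 7 at 9 months, and 7, 7 and 7 at 18 months. Naive eyes were not injected and no sham-injected eyes were analysed here, so the injection, the capsid and the vector genome cannot be told apart here.

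Toll-like receptors are membrane proteins of the innate immune system that recognise microbial structures through a leucine-rich repeat domain and signal through a cytoplasmic TIR domain. TLR1, TLR2, TLR4, TLR5 and TLR6 act at the cell surface, where TLR2 pairs with TLR1 or TLR6 on lipopeptides, TLR4 with its partner MD-2 binds lipopolysaccharide, and TLR5 binds flagellin. TLR3, TLR7, TLR8, TLR9 and mouse TLR13 are delivered by UNC93B1 to endosomes, where they bind nucleic acids: double-stranded RNA for TLR3, single-stranded RNA for TLR7 and TLR8, unmethylated CpG DNA for TLR9 and bacterial ribosomal RNA for TLR13. TLR9 has been linked to sensing of the AAV genome and TLR2 to sensing of the capsid. Most of these receptors signal through the adaptor MyD88, whereas TLR3 uses TRIF. Microglia are resident macrophages of the retina and express several members of the family.

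In the RefSeq annotation of GRCm38.p6 the genes lie on several chromosomes, in part as neighbours. *Tlr1* (chr5:64924680-64933600) and *Tlr6* (chr5:64953092-64970942) are adjacent on the minus strand of chromosome 5, and *Tlr7* (chrX:167303380-167330574) and *Tlr8* (chrX:167241123-167264329) on that of chromosome X. *Tlr2* lies at chr3:83836272-83841824 on the minus strand, *Tlr3* at chr8:45395665-45411075 on the minus strand, *Tlr4* at chr4:66827551-66846581 and *Tlr5* at chr1:182954752-182976044 on the plus strand, *Tlr9* at chr9:106222598-106226876 on the plus strand and *Tlr13* at chrX:106143275-106160493 on the plus strand. Of the 3046 stretches of 75 bases in *Tlr1* exons, a read length, 340 (11.2%) also occur in *Tlr6*, where they are 9.44% of 3603, so reads of these paralogs can be shared or discarded in part. No other pair of members shares such a stretch. The antisense gene *Gm45542* overlaps *Tlr3*, and the strand setting of the counting is not given in the sources used here.

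Promoter windows of 300 bases, from 250 bases before to 50 bases after a RefSeq start site, were given for 8 of the 10 members. The 4 below belong to the surface pair that rose together (*Tlr2* and *Tlr1*), to the receptor that fell furthest (*Tlr5*) and to the DNA sensor (*Tlr9*). They are written 5′ to 3′ on the gene's strand, with capitals at matches of any of 4 motifs searched on both strands: the NF-κB motif (GGG and TTCC spaced by 3 bases of any kind), the interferon-stimulated response element (GAAA and GAAA spaced by 2), the STAT motif TTCNNNGAA and the PU.1 motif AGGAAG, whose letters can overlap those of one another.
Tlr2, chr3:83841559-83841858, minus strand: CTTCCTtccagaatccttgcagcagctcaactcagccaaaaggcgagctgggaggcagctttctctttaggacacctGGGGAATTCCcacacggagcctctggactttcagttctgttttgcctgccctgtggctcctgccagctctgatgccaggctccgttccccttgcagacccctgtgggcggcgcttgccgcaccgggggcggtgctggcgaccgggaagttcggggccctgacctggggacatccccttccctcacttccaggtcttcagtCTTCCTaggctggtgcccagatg
Tlr1, the first of its windows, chr5:64933509-64933808, minus strand: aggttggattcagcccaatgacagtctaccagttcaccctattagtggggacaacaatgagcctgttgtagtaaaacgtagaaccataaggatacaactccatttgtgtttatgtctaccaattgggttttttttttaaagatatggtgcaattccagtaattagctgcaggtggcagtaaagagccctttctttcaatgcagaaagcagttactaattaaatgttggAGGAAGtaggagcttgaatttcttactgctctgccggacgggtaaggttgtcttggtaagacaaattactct
Tlr5, chr1:182954538-182954837, plus strand: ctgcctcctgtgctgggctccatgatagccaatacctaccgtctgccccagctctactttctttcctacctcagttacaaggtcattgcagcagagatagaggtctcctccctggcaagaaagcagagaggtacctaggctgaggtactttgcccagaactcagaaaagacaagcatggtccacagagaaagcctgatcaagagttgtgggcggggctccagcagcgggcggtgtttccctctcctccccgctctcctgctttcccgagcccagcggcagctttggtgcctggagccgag
Tlr9, chr9:106222348-106222647, plus strand: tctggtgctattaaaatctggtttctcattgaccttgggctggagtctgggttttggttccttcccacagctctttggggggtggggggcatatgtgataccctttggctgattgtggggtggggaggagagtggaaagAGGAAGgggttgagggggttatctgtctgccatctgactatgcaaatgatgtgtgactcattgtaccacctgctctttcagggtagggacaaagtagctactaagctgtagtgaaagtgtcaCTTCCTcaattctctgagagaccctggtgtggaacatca
The *Tlr2* window held an NF-κB match, GGGGAATTCC, that began 173 bases before the start site, and PU.1 matches at both of its ends. NF-κB matches also lay in windows of *Tlr3* (211 bases before the start) and *Tlr6* (99 bases before that of its second window), genes that passed no day test over all libraries. *Tlr1* held a PU.1 match 22 bases before the start and, in its second window, which is not printed, a STAT match 228 bases before that start. STAT matches were also found for *Tlr6* and *Tlr8*, interferon elements for *Tlr6*, and PU.1 matches for *Tlr6* and *Tlr13*. *Tlr9* held a PU.1 match 111 bases before its start and another 11 bases after it, while the *Tlr5* window held no match to any of the 4. Of 32851 such windows in the genome, 5.56% held the NF-κB motif, 3.44% the interferon element, 8.3% the STAT motif and 35.4% the PU.1 motif. These matches describe letters only and are not sites shown to be bound.

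Total counts of the 62 libraries ranged from 1468478 to 9836173 with a median of 4188992, so that 3 counts were worth between 0.361 and 2.12 CPM, the count relative to library size that is used as the level throughout. Of 64 sequenced libraries, 2 did not match their sex labels, the 9-month male day 28 library 1, which the corrected table leaves out, and the 18-month female day 28 library 1, which was left out here. The labels of a further library, the 18-month male day 28 library 4, disagree on the day (28 by title, 12 by time point), and it was taken as day 28. The sorted cells bore microglial markers (*P2ry12*, *Tmem119*, *Cx3cr1*, *Sall1*, *Fcrls*, *Siglech*, *Csf1r* and *Aif1*, none at 0), whose summed level was 17760 CPM (median; range 14360 to 19770) in naive, 9490 CPM (6688 to 13230) in day 12 and 12230 CPM (8354 to 13770) in day 28 libraries. Markers of other cells moved between the days too. The 6 T cell markers summed to 1.136 CPM (0 to 156.3), 121.1 CPM (1.574 to 382.2) and 70.6 CPM (14.81 to 184.1) in naive, day 12 and day 28 libraries, and the 6 monocyte markers to 30.06 CPM (4.42 to 119.6), 64.13 CPM (5.743 to 1106) and 8.211 CPM (1.06 to 62.76), with *Chil3* at 0 in all naive and day 28 libraries. The 6 dendritic cell markers summed to medians of 8.926, 9.461 and 7.98 CPM, the 5 plasmacytoid dendritic cell markers to 4.258, 13.74 and 3.193 CPM with *Ly6d* at 0 in naive and *Klk1* in day 28 libraries, the 5 B cell markers to 84.71, 48.77 and 54.28 CPM with *Blk* at 0 in naive libraries, the 5 neutrophil markers to 172.2, 182 and 186.9 CPM with *S100a9* at 0 in naive and day 28 and *Retnlg* at 0 in day 12 and day 28 libraries, the 5 border macrophage markers to 318.6, 233.2 and 261.1 CPM, the 5 photoreceptor markers to 1752, 749 and 1393 CPM and the 4 Müller glia markers to 315, 342.2 and 375.6 CPM. Within single ages more of these markers were at 0 in naive libraries. For B cells these were *Blk* and *Pax5* at 3 months, *Blk*, *Cd79a* and *Pax5* at 9 months, and *Blk*, *Cd79a* and *Ms4a1* at 18 months. Of the neutrophil markers, *Retnlg*, *S100a8* and *S100a9* were at 0 at 3 months. Such sums thus rest on the few remaining markers. The part of these cells in the receptor levels was not tested, and in such bulk libraries fewer cells of a type and less RNA per cell cannot be told apart.

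In naive microglia the family spanned a wide range of levels, here compared per kilobase of exon because the genes differ in length. *Tlr2* was highest with a median of 43.2 CPM per kilobase, followed by *Tlr7* (32.9), *Tlr13* (30.4), *Tlr3* (19.96), *Tlr4* (18.4) and *Tlr1* (17.4). *Tlr6* (4.17), *Tlr9* (1.34), *Tlr8* (1.33) and *Tlr5* (0.587) were far lower. The ranges of every neighbouring pair in this order overlapped across the 19 naive libraries, although *Tlr1* exceeded *Tlr6*, and *Tlr6* exceeded *Tlr9*, within each of the 19. At day 12 *Tlr2* stood at 115 CPM per kilobase and exceeded the next receptor, *Tlr7* (34.0), in 22 of 22 libraries without overlap of their ranges. *Tlr1* (32.2) was then the third of the order in place of the sixth, ahead of *Tlr13* (23.2), *Tlr4* (19.5) and *Tlr3* (18.7). *Tlr6* (5.05), *Tlr9* (1.02), *Tlr8* (0.165) and *Tlr5* (0) kept the low end. At day 28 *Tlr2* (70.7) again led, exceeding *Tlr13* (32.1) in 21 of 21 libraries, and *Tlr8* (0.238) and *Tlr5* (0) were the lowest.

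**Figure D1:**
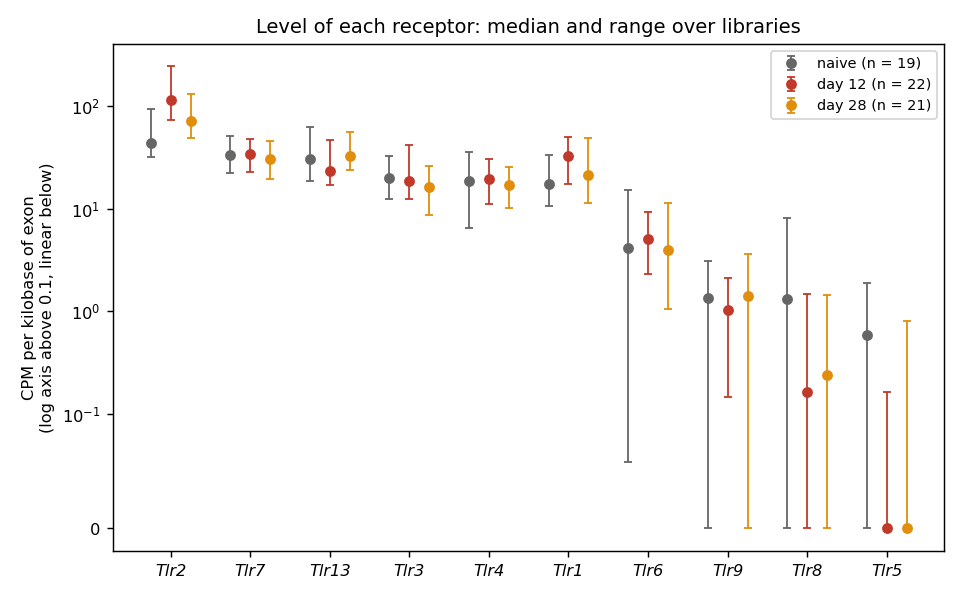
Level of each receptor in CPM per kilobase of exon (axis logarithmic above 0.1 and linear below it) in naive (grey, n = 19), day 12 (red, n = 22) and day 28 (orange, n = 21) libraries. Points are medians and bars the range over libraries; *Tlr2* leads at every day, and *Tlr6*, *Tlr9*, *Tlr8* and *Tlr5* form the low end.

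At day 12, *Tlr2* rose and *Tlr5* fell at every age, *Tlr1* rose at 3 and 9 months, and *Tlr8* fell at 3 months, while *Tlr9* passed the test in no comparison. The *Tlr1* call at 9 months and the *Tlr8* call at 3 months were lost on uncorrected counts with a batch term. Changes were tested with edgeR's quasi-likelihood test over all 62 libraries, with p-values adjusted by the Benjamini-Hochberg method over all 13584 genes. Against naive, 4 of 10 receptors passed an adjusted p of 0.05 at day 12 in 3-month-old mice, 3 at 9 months and 2 at 18 months, where 16.7%, 18.4% and 15.5% of all tested genes passed. At day 28 the counts were 0, 0 and 1 of 10, against 2.77%, 4.07% and 4.81% of all genes. For the zeros at 3 and 9 months, 5 and 2 receptors had an unadjusted p under 0.05, and DESeq2 called 0 at both ages. Against a 2-fold change as the null, only *Tlr5* at day 12 passed, at all 3 ages, and with DESeq2 no receptor did. Of all genes, 3.35%, 4.11% and 3.28% passed this test at day 12 and 0.493%, 0.582% and 0.802% at day 28. *Tlr5* passed the low-count filter through groups other than day 12, so its tests for a fall are not independent of that filter. No receptor had day 12 or day 28 libraries wholly apart from the naive libraries of its age, which 6.46%, 4.72% and 2.23% of tested genes had at day 12 and 2.58%, 3.04% and 1.99% at day 28. The median log2 fold change of the 10 receptors was -0.26, -0.26 and 0.18 at day 12 and -0.42, -0.18 and 0.09 at day 28 (3, 9 and 18 months), beside medians over all genes of -0.00, 0.06 and 0.03 and of -0.01, 0.04 and 0.02. Both days were set against the same naive libraries, so their changes share that error.

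**Figure D2:**
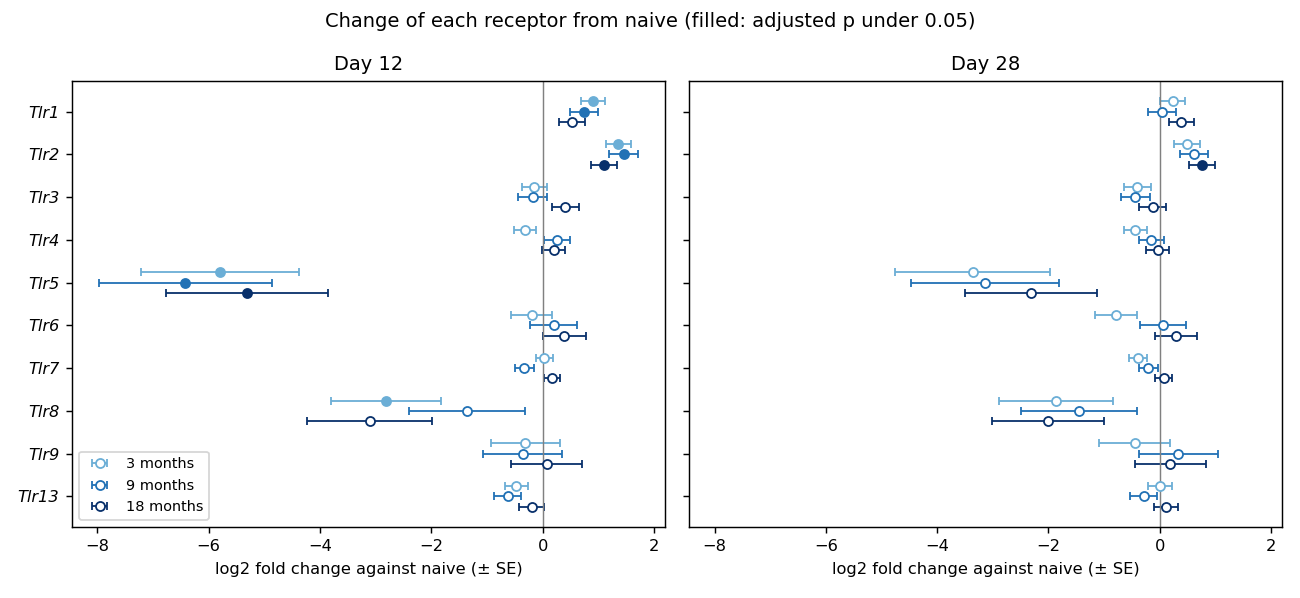
Log2 fold change of each receptor against naive at day 12 (left) and day 28 (right) at 3, 9 and 18 months (light to dark blue), as fitted by edgeR, with bars of 1 SE and filled points for an adjusted p under 0.05. *Tlr2* lies above 0 at each age on both days and *Tlr5* and *Tlr8* below it with wide bars; the fitted values of *Tlr5* at 3 and 9 months at day 12 depend on the prior count because its day 12 counts were 0.

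*Tlr2* encodes the receptor for bacterial lipopeptides that pairs with TLR1 or TLR6. In 3-month-old mice its level ranged from 97.49 to 257.5 CPM in naive libraries (median 126.2, n = 7), from 221.8 to 545.1 CPM at day 12 (median 331.5, n = 8) and from 144.9 to 224.8 CPM at day 28 (median 184.4, n = 7). In 9-month-old mice the 5 naive libraries stood at 96.1, 113.1, 130.1, 138 and 242.2 CPM, day 12 libraries ranged from 239.7 to 740 CPM (median 363.5, n = 7) and day 28 libraries from 162.3 to 300.9 CPM (median 235.8, n = 7). In 18-month-old mice the ranges were 109.4 to 280.4 CPM in naive (median 131.3, n = 7), 234.7 to 385.2 CPM at day 12 (median 344.2, n = 7) and 156.7 to 395 CPM at day 28 (median 235.3, n = 7). Most day 12 libraries were thus higher than every naive library of their age (5 of 8, 6 of 7 and 5 of 7), and at each age the overlap with naive came from 1 naive library far above the rest.

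The mean level of *Tlr2* was 138 ± 55.2, 341 ± 117 and 184 ± 29.7 CPM at 3 months (SD; naive, day 12, day 28), 144 ± 57.3, 404 ± 170 and 229 ± 48.2 CPM at 9 months, and 149 ± 60.3, 322 ± 52.9 and 253 ± 78.4 CPM at 18 months. The log2 fold change at day 12 was 1.36 (SE 0.22, adjusted p = 5.54e-06), 1.46 (SE 0.26, adjusted p = 2.82e-05) and 1.10 (SE 0.23, adjusted p = 0.000303). Within the collection batches, fitted apart on uncorrected counts, it was 1.36, 1.84 and 0.82 in the first (adjusted p = 0.0469, 0.00589 and 0.156) and 1.26, 1.15 and 1.36 in the second (adjusted p = 0.00201, 0.0117 and 0.000314), so the sign held in both and the 18-month value did not pass in the first. Between day 12 and day 28 *Tlr2* fell at 3 months (log2 fold change -0.87, SE 0.22, adjusted p = 0.0156) and 9 months (-0.84, SE 0.23, adjusted p = 0.0108). The 18-month difference was -0.34 (SE 0.22, adjusted p = 0.54).

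At day 28 *Tlr2* remained above naive in the 18-month-old mice, with a log2 fold change of 0.76 (SE 0.23, adjusted p = 0.0334). For this comparison its 7 naive and 7 day 28 libraries were left out in turn. The call was lost in 8 of these refits, by edgeR's test with adjusted p between 0.0524 and 0.166, namely without male naive library 2, 3 or 4, female naive library 2 or 3, male day 28 library 3 or 4, or female day 28 library 3 (the highest p, at a log2 fold change of 0.61), and also with the doubly labelled library counted as day 12 (0.68, adjusted p = 0.0775). By batch it was 0.21 (adjusted p = 0.807) in the first and 1.21 (adjusted p = 0.00399) in the second. At 3 and 9 months the day 28 values were 0.49 (SE 0.23, adjusted p = 0.307) and 0.62 (SE 0.25, adjusted p = 0.161).

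The 3 naive libraries with the highest *Tlr2* of their ages, the 3-month female library 4 (257.5 CPM), the 9-month male library 2 (242.2 CPM) and the 18-month female library 1 (280.4 CPM), also had the highest monocyte marker sums among the naive libraries of their ages, at 119.6, 104.2 and 118.6 CPM. They were also the highest naive libraries of their ages for *Tlr6*, at 42.89, 56.05 and 41.17 CPM. Their T cell marker sums were 3.47, 0 and 2.47 CPM. The part of monocytes in these levels was not tested.

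*Tlr1*, which encodes a partner of TLR2, moved in the same direction at a lower level. At 3 months it ranged from 32.89 to 104.4 CPM in naive libraries (median 44.85), from 63.21 to 145.2 CPM at day 12 (median 92.99) and from 41.68 to 66.37 CPM at day 28 (median 61.66). At 9 months the naive libraries stood at 43.5, 45.4, 49.6, 70.8 and 104.5 CPM, with 85.1 to 123.4 CPM at day 12 (median 111.5) and 35.41 to 80.1 CPM at day 28 (median 71.41). Day 12 libraries above every naive library of their age numbered 3 of 8 at 3 months and 4 of 7 at 9 months. At 18 months 3 of 7 day 12 libraries were above all naive ones, with ranges of 52.64 to 79.87 CPM in naive (median 63.99), 54.26 to 153.9 CPM at day 12 (median 74.39) and 42.04 to 151.2 CPM at day 28 (median 82.66).

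*Tlr1* rose at day 12 at 3 months (log2 fold change 0.90, SE 0.22, adjusted p = 0.00258) and 9 months (0.74, SE 0.25, adjusted p = 0.0345), with 0.53 at 18 months (SE 0.23, adjusted p = 0.11). For the 9-month comparison its 5 naive and 7 day 12 libraries were left out in turn. The call was lost in 6 of these refits, furthest without male naive library 1 (0.51, adjusted p = 0.254) and otherwise without female naive library 2 or 3, female day 12 library 1 or 3, or male day 12 library 3 (adjusted p between 0.0534 and 0.0723). Within batches the values were 1.09, 0.84 and 0.29 in the first (adjusted p = 0.0228, 0.0611 and 0.516) and 0.63, 0.54 and 0.80 in the second (adjusted p = 0.267, 0.366 and 0.0798), all of 1 sign. From day 12 to day 28 *Tlr1* fell at 9 months (-0.70, SE 0.23, adjusted p = 0.0398), with -0.66 at 3 months (SE 0.22, adjusted p = 0.0949) and -0.14 at 18 months (SE 0.23, adjusted p = 0.886). Over the 62 libraries, log2 CPM of *Tlr1* and *Tlr2* had a Pearson correlation of 0.708, and of 0.505 after each group's mean was removed; the libraries share depth and batch across genes, and this is given as a description.

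**Figure D3:**
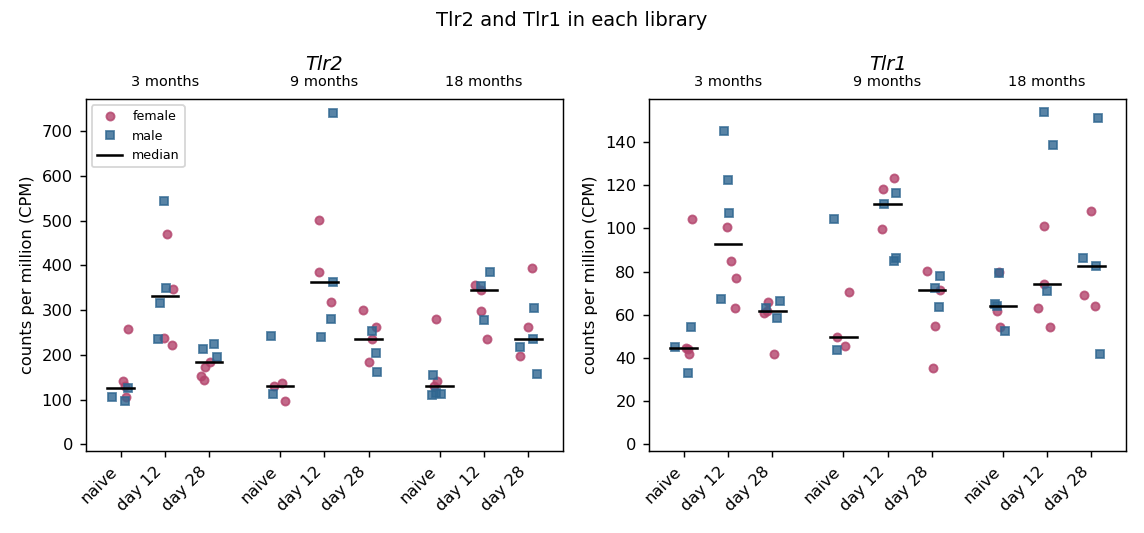
CPM of *Tlr2* and *Tlr1* in each library by age and day, with circles for females, squares for males and lines for group medians. The medians of both genes are highest at day 12 at 3 and 9 months, and at each age 1 naive library lies far above the other naive values of *Tlr2*.

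*Tlr6*, the other partner of TLR2, passed the test at no age and day over all 62 libraries, but did at 9 months in the first batch alone. Its naive range was 10.34 to 42.89 CPM at 3 months (median 17.14), 0.2113 to 56.05 CPM at 9 months (median 11.69) and 6.736 to 41.17 CPM at 18 months (median 15.32), and day 12 medians were 16.58, 18.9 and 26.01 CPM. The log2 fold change at day 12 was -0.20 (SE 0.37, adjusted p = 0.797), 0.20 (SE 0.42, adjusted p = 0.805) and 0.39 (SE 0.38, adjusted p = 0.546). At day 28 the lowest value was -0.79 at 3 months (SE 0.38, adjusted p = 0.355), where the median was 10.77 CPM. The wide naive range at 9 months came from a male library at 56.05 CPM and a female library at 0.2113 CPM. In the first batch, which holds 2 naive libraries at 9 months, the female one at 1 count and a male one at 15.06 CPM after batch correction, the 9-month change was 3.74 at day 12 (SE 0.61, adjusted p = 0.000334) and 3.30 at day 28 (SE 0.64, adjusted p = 0.00304). In the second batch it was -0.44 (SE 0.51, adjusted p = 0.633) and -0.60 (SE 0.44, adjusted p = 0.486), so the sign differed between the batches.

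*Tlr4*, the lipopolysaccharide receptor, ranged from 71.65 to 133.3 CPM in naive 3-month libraries (median 86.68), 26.62 to 145 CPM at 9 months (median 68.36) and 27.58 to 116.5 CPM at 18 months (median 74.08). Its day 12 medians were 76.9, 88.22 and 69.98 CPM and its day 28 medians 63.95, 69.68 and 71.5 CPM. The log2 fold change at day 12 was -0.32 (SE 0.20, adjusted p = 0.328), 0.26 (SE 0.23, adjusted p = 0.496) and 0.20 (SE 0.21, adjusted p = 0.606), none of which passed. In the first batch alone the 9-month value passed (0.97, SE 0.30, adjusted p = 0.0349), and in the second it was -0.33 (SE 0.30, adjusted p = 0.503). At 3 months, 5 of 7 day 28 libraries lay below every naive library, and the change was -0.44 (SE 0.21, adjusted p = 0.342).

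*Tlr5*, the flagellin receptor, was the receptor with the lowest counts and dropped out of detection at day 12. In naive libraries it summed to 55 counts at 3 months, 79 at 9 months and 87 at 18 months, with highest values of 4.885, 5.749 and 6.027 CPM and 2 of 7, 1 of 5 and 1 of 7 libraries at 0. At day 12 it was at 0 in all 8 libraries at 3 months and all 7 at 9 months, and summed to 2 counts in the 7 libraries at 18 months. In all, 20 of 22 day 12 libraries were at 0, against 4 of 19 naive libraries, and the uncorrected table also held 2 counts at day 12 against 215 in naive.

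Set against a floor of 3 counts over the group, *Tlr5* was 17.5-fold lower at day 12 at 3 months and 31.6-fold lower at 9 months. The lower ends of the 95% exact counting intervals there were 13.8-fold and 25.1-fold. At 18 months it was 39.4-fold lower on pooled counts (95% exact counting interval 10.6 to 331). Such intervals cover counting error only. The adjusted p of the day 12 test was 0.00285, 0.00255 and 0.00871, and it was 0.0148, 0.0103 and 0.0383 against a 2-fold change. No day 12 library held *Tlr5* above 0.5245 CPM, so the gene passed the low-count filter through libraries of other groups. These tests for a fall are therefore not independent of that filter. With one fit per age, *Tlr5* did not pass the filter at 3 months and was not tested there. In the second batch alone the adjusted p was 0.0656, 0.0442 and 0.0827, with a negative sign at each age. In the first batch it was 0.495 and 0.124 at 3 and 18 months, also with a negative sign, and the 9-month change could not be estimated there. At day 28 *Tlr5* summed to 21, 13 and 15 counts, which on pooled counts was 2.56-fold (1.52 to 4.45), 6.49-fold (3.58 to 12.7) and 5.51-fold (3.16 to 10.3) below naive. The test over libraries did not pass at day 28 (adjusted p = 0.232, 0.185 and 0.316), and 11 of 21 libraries were at 0. In the second batch alone the 9-month day 28 value passed (adjusted p = 0.0472).

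Of the endosomal receptors, *Tlr9* encodes the sensor of unmethylated CpG DNA linked to AAV genomes, and it was low throughout. At 3 months it ranged from 0 to 8.039 CPM in naive libraries (median 4.778), from 0.5135 to 7.101 CPM at day 12 (median 3.162) and from 1.146 to 6.693 CPM at day 28 (median 3.347). At 9 months the naive libraries stood at 0, 3.43, 3.87, 4.83 and 7.19 CPM, day 12 libraries at 0.5221 to 5.774 CPM (median 1.96) and day 28 libraries at 0 to 7.707 CPM (median 4.976). At 18 months the ranges were 0 to 10.74 CPM in naive (median 3.975), 2.781 to 7.25 CPM at day 12 (median 5.77) and 0.6537 to 12.6 CPM at day 28 (median 5.465). The days overlapped across nearly their whole range at each age.

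The log2 fold change of *Tlr9* at day 12 was -0.31 (SE 0.62, adjusted p = 0.813), -0.36 (SE 0.71, adjusted p = 0.793) and 0.07 (SE 0.64, adjusted p = 0.976) at 3, 9 and 18 months. At day 28 it was -0.45 (SE 0.64, adjusted p = 0.886), 0.33 (SE 0.71, adjusted p = 0.873) and 0.19 (SE 0.64, adjusted p = 0.95). These standard errors lie between 0.62 and 0.71, so that a 2-fold change, 1 on this scale, was smaller than 2 standard errors and was not detectable at this depth. Within the first batch the values were -0.56, 3.35 and 3.75 at day 12 and -1.81, 3.93 and 3.30 at day 28, and within the second 0.24, -0.80 and -0.30 and 0.12, -0.18 and 0.23, of which none passed (lowest adjusted p = 0.115). The size and at some ages the sign thus depended on the batch, and 1 of 2 naive libraries at 9 months and 1 of 3 at 18 months in the first batch were at 0. In total *Tlr9* had 420 counts in 19 naive, 367 in 22 day 12 and 421 in 21 day 28 libraries, and 3, 0 and 1 libraries were at 0. Markers of plasmacytoid dendritic cells and B cells, which are known to express *Tlr9*, summed to medians of 4.258 and 84.71 CPM in naive and 13.74 and 48.77 CPM in day 12 libraries. At each age 2 or 3 of the 5 markers of either type were at 0 in all naive libraries. The part of these cells in the *Tlr9* level was not tested.

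*Tlr8*, a sensor of single-stranded RNA encoded beside *Tlr7* on chromosome X, was lower after injection in pooled counts at every age. Its naive range was 0.7047 to 13.2 CPM at 3 months (median 4.621), and the day 12 range 0 to 3.1 CPM (median 0.5135) with 4 of 8 libraries at 0. At 9 months the naive median was 4.743 CPM (0 to 8.927) and the day 12 median 1.96 CPM (0 to 5.117), and at 18 months they were 2.744 CPM (0 to 28) and 0 CPM (0 to 3.834). Its total fell from 160 to 32 counts at 3 months and from 124 to 70 at 9 months. At 18 months it fell from 144 to 24 counts. On pooled counts these falls were 4.78-fold (3.25 to 7.22), 2.13-fold (1.57 to 2.89) and 5.44-fold (3.51 to 8.76) in CPM. The exact counting intervals in brackets cover counting error only and leave out the spread between mice. Over libraries only the 3-month change passed (log2 fold change -2.82, SE 0.99, adjusted p = 0.0394), with -1.36 at 9 months (SE 1.04, adjusted p = 0.402) and -3.11 at 18 months (SE 1.13, adjusted p = 0.0506). For the 3-month comparison its 7 naive and 8 day 12 libraries were left out in turn. The call was lost in 9 of these refits, furthest without male naive library 3 (-2.37, adjusted p = 0.121) and otherwise without female naive library 1 or 4, male naive library 2, female day 12 library 1, 2 or 4, or male day 12 library 2 or 4 (adjusted p between 0.0502 and 0.0769). Within the first and second batch it was -2.82 (adjusted p = 0.667) and -2.72 (adjusted p = 0.172), and the 9-month value turned sign, at 2.45 and -1.18 (adjusted p = 0.473 and 0.562). At 18 months a single naive library, the female library 1, held the value of 28 CPM. At day 28 the log2 fold changes were -1.86, -1.45 and -2.01 (adjusted p = 0.451, 0.496 and 0.296).

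**Figure D4:**
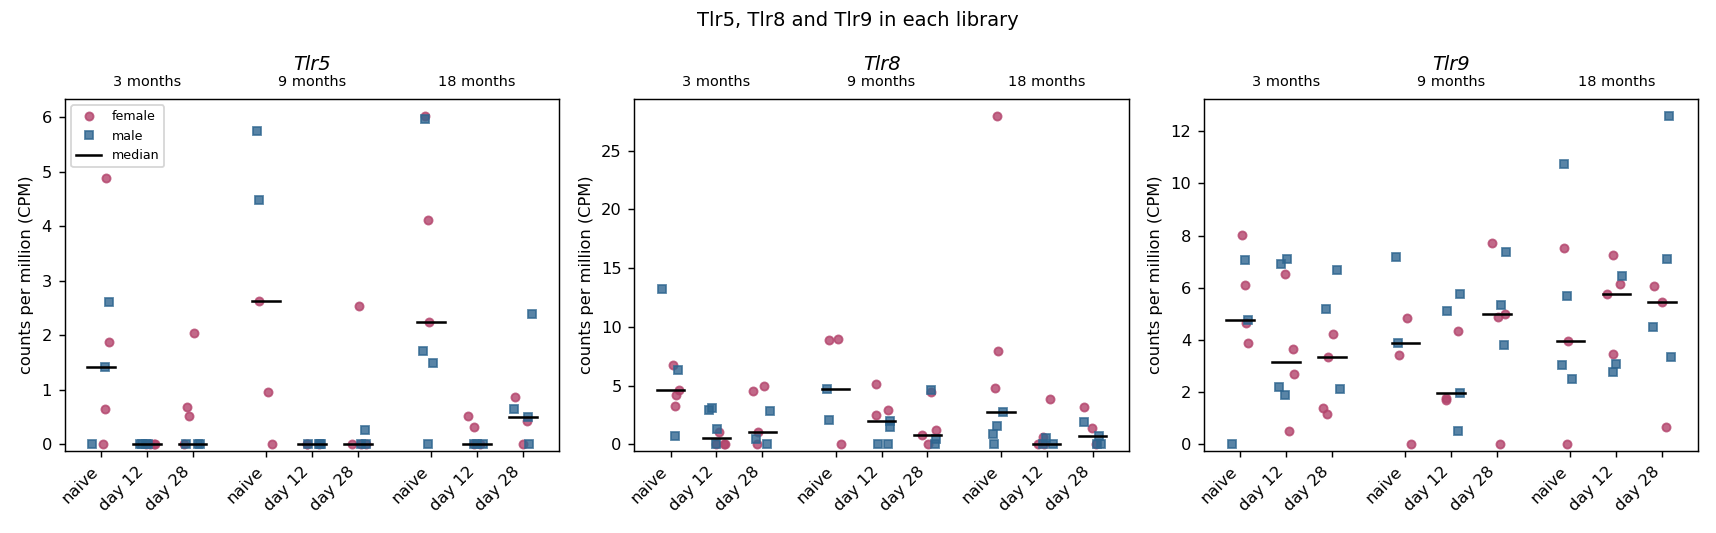
CPM of *Tlr5*, *Tlr8* and *Tlr9* in each library by age and day, with circles for females, squares for males and lines for group medians. The day 12 values of *Tlr5* sit at 0 apart from 2 libraries at 18 months, those of *Tlr8* at or under 5.117 CPM, and those of *Tlr9* lie among the naive values.

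*Tlr7*, the other sensor of single-stranded RNA, was far more abundant than *Tlr8* and passed the test at no age and day. Its median was 131.6 CPM in naive (87.62 to 199.7), 146.6 CPM at day 12 (119.7 to 160) and 103.3 CPM at day 28 (94.61 to 126.1) at 3 months, 145.6, 120.7 and 127.4 CPM at 9 months and 115.5, 144.3 and 129.8 CPM at 18 months. The day 12 log2 fold change was 0.03 (SE 0.15, adjusted p = 0.935), -0.33 (SE 0.17, adjusted p = 0.177) and 0.17 (SE 0.15, adjusted p = 0.525). Its standard errors were the smallest of the family. At day 28 the lowest value was -0.39 at 3 months (SE 0.16, adjusted p = 0.196).

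*Tlr3*, the receptor for double-stranded RNA, had medians of 87.96, 76.16 and 68.73 CPM at 3 months (naive, day 12, day 28), 102.6, 82.57 and 72.89 CPM at 9 months and 68.71, 102 and 74.74 CPM at 18 months. Its day 12 log2 fold change was -0.15 (SE 0.23, adjusted p = 0.744), -0.18 (SE 0.26, adjusted p = 0.698) and 0.41 (SE 0.24, adjusted p = 0.261). The day 28 values were -0.40, -0.44 and -0.13 (adjusted p = 0.519, 0.374 and 0.865). None of these passed, and the day 12 and naive ranges overlapped widely. In the second batch alone the 18-month day 12 value passed (0.83, SE 0.23, adjusted p = 0.0143), and in the first it was -0.14 (SE 0.31, adjusted p = 0.847).

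*Tlr13*, the mouse receptor for bacterial ribosomal RNA, had lower medians at day 12 than in naive at each age in the batch-corrected counts, and none of these differences passed the test. In the uncorrected counts pooled over both batches, the day 12 and naive medians were 123 and 127 CPM at 3 months and 127 and 200 CPM at 9 months. At 18 months they were 124 and 82.7 CPM, the other direction. Fitted within each batch on uncorrected counts, *Tlr13* changed by -0.23 (first batch) and -0.21 (second batch) at 18 months on the log2 scale. At 3 months it ranged from 74.47 to 251.3 CPM in naive (median 128.4), 70.8 to 149.9 CPM at day 12 (median 96.23) and 95.31 to 223.4 CPM at day 28 (median 135.9). The naive and day 12 medians were 135.5 and 99.29 CPM at 9 months and 110 and 80.65 CPM at 18 months. At 9 months 4 of 7, and at 18 months 5 of 7, day 12 libraries lay below all naive libraries of their age. The log2 fold change was -0.47 (SE 0.21, adjusted p = 0.125), -0.63 (SE 0.24, adjusted p = 0.0582) and -0.20 (SE 0.22, adjusted p = 0.615). At day 28 it was -0.00, -0.29 and 0.11 (adjusted p = 1, 0.57 and 0.885).

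**Figure D5:**
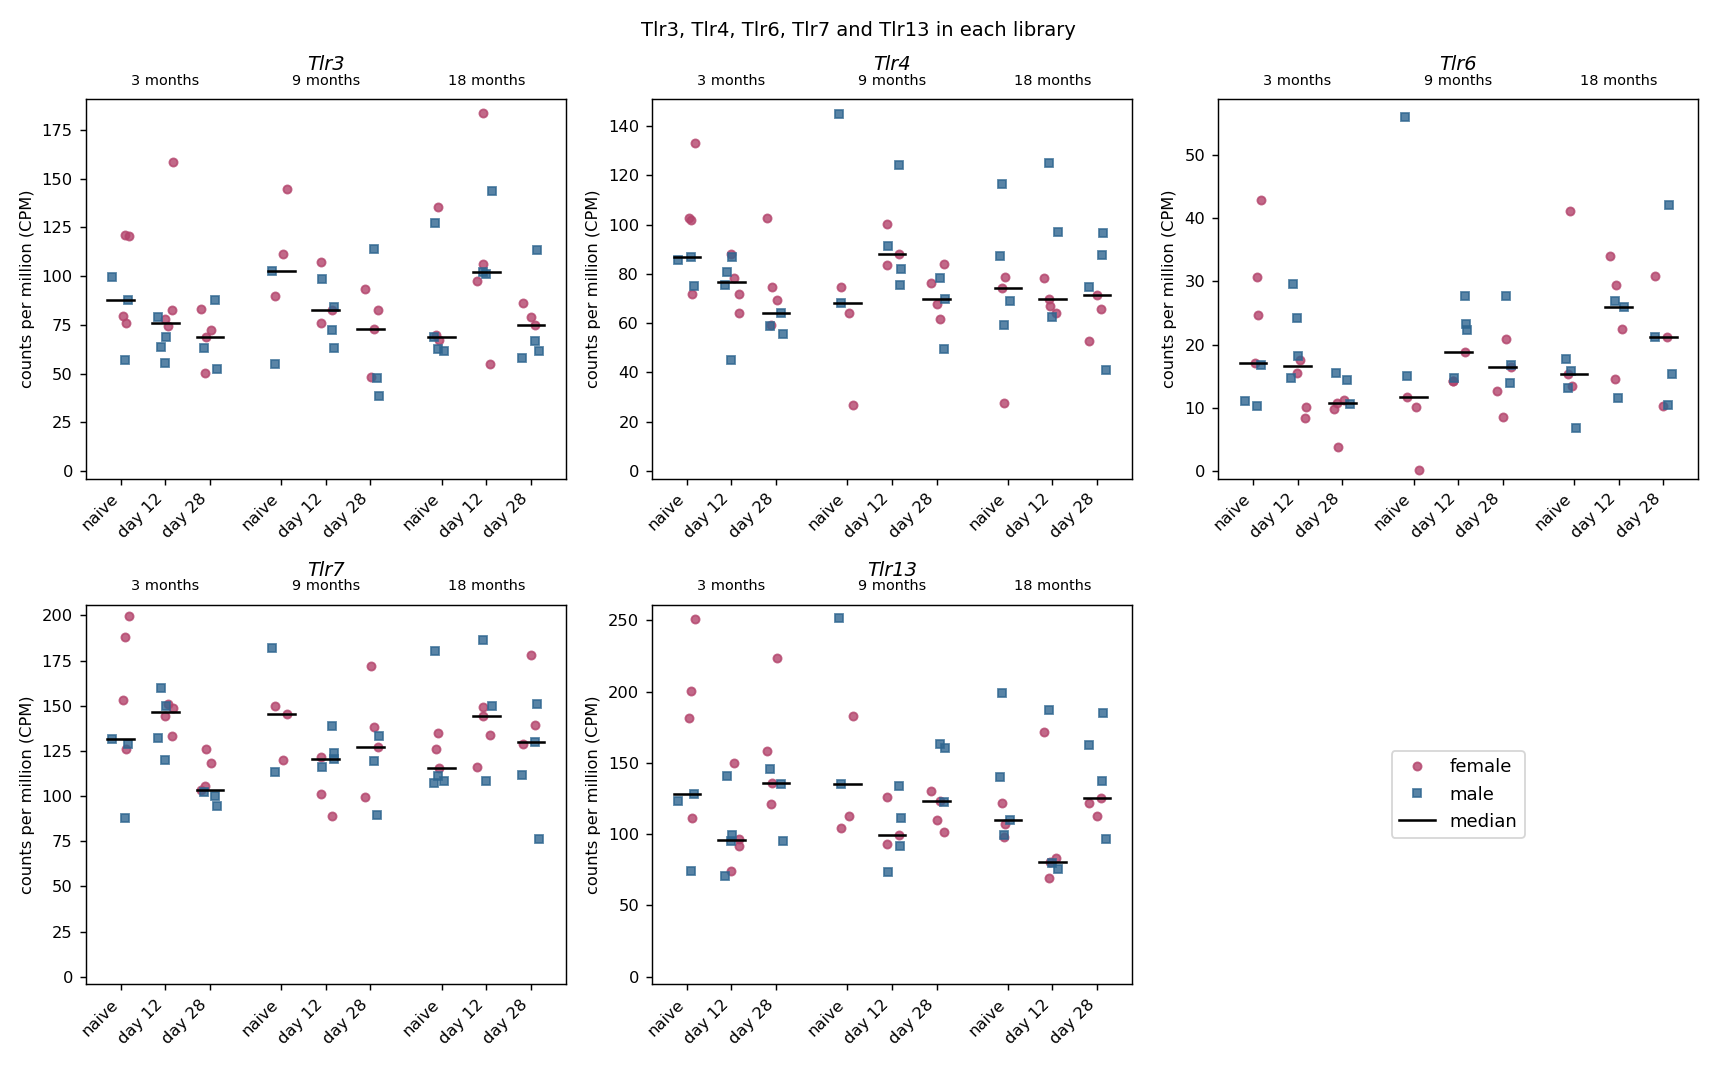
CPM of *Tlr3*, *Tlr4*, *Tlr6*, *Tlr7* and *Tlr13* in each library by age and day, with circles for females, squares for males and lines for group medians. Days overlap at each age in all 5 genes, and in these batch-corrected values the day 12 medians of *Tlr13* are the lowest of the 3 days at each age. This did not hold for medians of the uncorrected counts pooled over the batches.

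The change from naive was also tested in each sex against naive mice of that sex. These groups held 3 or 4 libraries each, except for 2 naive 9-month males. The 9-month male tests at day 12 thus set 4 libraries against 2, and 1 of these 2 stood at 242.2 CPM for *Tlr2*. At day 12 there were 7 receptor calls over the 6 age and sex groups: *Tlr2* in 3-month females (1.0, SE 0.30, adjusted p = 0.0248), 3-month males (1.72, SE 0.34, adjusted p = 0.000327), 9-month females (1.73, SE 0.35, adjusted p = 0.000431) and 18-month males (1.47, SE 0.32, adjusted p = 0.000855), *Tlr1* in 3-month males (1.33, SE 0.33, adjusted p = 0.00692) and 9-month females (1.04, SE 0.35, adjusted p = 0.0388), and *Tlr5* in 9-month males (adjusted p = 0.0413). *Tlr2* stood at 1.19 in 9-month males (SE 0.38, adjusted p = 0.0562) and 0.74 in 18-month females (SE 0.32, adjusted p = 0.203). Over all genes 7.37%, 11.2% and 3.45% passed in females and 7.23%, 4.53% and 8.94% in males at 3, 9 and 18 months. At day 28 no receptor passed in either sex by edgeR, where 0.788%, 1.55% and 1.38% of genes passed in females and 0.537%, 0.133% and 1.3% in males. DESeq2 called 2 at day 28, and 29 of the 120 tests by sex over both days had an unadjusted p under 0.05, of which edgeR called the 7 above.

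Whether the sexes or the ages differed in their change was tested directly, and no receptor passed an adjusted p of 0.1. Of 60 tests of the difference between sexes, 6 had an unadjusted p under 0.05, 4 of them for *Tlr6*, and DESeq2 called 0. The largest for *Tlr2* was 0.91 at day 28 at 3 months (SE 0.45, adjusted p = 1). Of all genes, 0.00736% passed at 9 months at day 12 and 0% in each of the other 5 comparisons. Of 40 tests of the difference between ages, 2 had an unadjusted p under 0.05, and DESeq2 called 0. The *Tlr2* change at day 12 differed by 0.09 between 9 and 3 months (SE 0.33, adjusted p = 1) and by -0.26 between 18 and 3 months (SE 0.31, adjusted p = 0.843), where 0.0368% and 0.191% of genes passed; at day 28, 0% passed in both.

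The levels of the receptors did not pass either when ages were compared at one day or the sexes in naive mice. Of 60 receptor tests between ages at one day, 6 had an unadjusted p under 0.05 and 0 passed by edgeR or DESeq2, where 0%, 1.7% and 0% of genes passed between 9 and 3 months (naive, day 12, day 28) and 0.0957%, 1.97% and 0.0442% between 18 and 3 months. Within each sex, 6 of 80 such tests had an unadjusted p under 0.05 and 0 passed by either tool. Of all genes, 0.876% passed in 9-month and 0.456% in 18-month against 3-month females at day 12. At most 0.00736% passed in each of the other comparisons within a sex. Among the 6 was *Tlr2* at day 28 in females, 18 against 3 months. Its levels there were 197.9 to 395 CPM (n = 3) and 144.9 to 184.4 CPM (n = 4). The paper lists *Tlr2* among the genes higher at day 28 in old than in young females, from its own DESeq2 analysis at an adjusted p of 0.1. Between naive males and females 6 of 30 had an unadjusted p under 0.05, edgeR called 0 and DESeq2 called 1, against 0.0515%, 0.118% and 0.199% of genes. *Tlr7*, *Tlr8* and *Tlr13* lie on chromosome X, and their naive male minus female differences were -0.53, 0.09 and 0.01 for *Tlr7*, 0.49, -0.79 and -3.35 for *Tlr8* and -0.78, 0.54 and 0.33 for *Tlr13* at 3, 9 and 18 months on the log2 scale, none of which passed.

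From day 12 to day 28, 3 receptor calls were made over the 3 ages, all of them falls: *Tlr2* at 3 and 9 months and *Tlr1* at 9 months, as given above. Over all genes 2.77%, 9.35% and 2.85% passed at 3, 9 and 18 months. The rises of *Tlr5* from its day 12 zeros did not pass (adjusted p = 1, 0.159 and 0.276).

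Around the receptors, the molecules that hand ligands to them or deliver them moved unevenly at day 12. Of 6 coreceptor and ligand-handling genes tested, 2 rose and 1 fell at 3 months and 1 rose and 1 fell at 9 and 18 months, with a median log2 fold change of 0.19, -0.26 and 0.15, where 16.7%, 18.4% and 15.5% of all tested genes passed in either direction at 3, 9 and 18 months. *Cd14*, the lipopolysaccharide coreceptor of TLR4, fell at each age (-1.90, SE 0.28, adjusted p = 5.06e-07; -2.32, SE 0.31, adjusted p = 1.17e-07; -1.53, SE 0.29, adjusted p = 8.68e-05). Its 3-month range was 871.7 to 1270 CPM in naive, 120.3 to 473.8 CPM at day 12 and 588.1 to 842.1 CPM at day 28. Neither day overlapped naive there, as for 6.46% and 2.58% of tested genes at day 12 and day 28. At 18 months both days overlapped naive. The ranges there were 849.1 to 1199 CPM in naive, 162.4 to 997.6 CPM at day 12 and 302.7 to 1365 CPM at day 28. *Cd36*, a scavenger receptor that assists TLR2 with TLR6, rose at each age by edgeR's test (2.85, 2.79 and 5.02, adjusted p = 0.00128, 0.00691 and 1.34e-06). It remained raised at day 28 at 18 months (3.01, SE 0.69, adjusted p = 0.00337). The day 12 and naive ranges of *Cd36* overlapped at each age. At 18 months they were 2.623 to 1026 CPM at day 12 and 1.247 to 41.58 CPM in naive. *Clec7a*, the β-glucan receptor Dectin-1, rose at 3 months (0.60, SE 0.18, adjusted p = 0.0141). *Ly96*, which encodes MD-2, was at -0.02 and *Cd180*, a TLR4-related receptor, at 0.31 at 3 months (adjusted p = 0.998 and 0.192).

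Of 9 genes for trafficking and processing of endosomal receptors, 2 rose and 1 fell at 3 months, 1 rose at 9 months and 3 rose at 18 months (median 0.20, 0.24 and 0.23), against the same 16.7%, 18.4% and 15.5% of all genes. *Ctsb* and *Ctss*, lysosomal cathepsins, rose at 3 months (1.54, adjusted p = 1.3e-05, and 0.70, adjusted p = 0.0024), and the chaperone *Cnpy3* fell (-0.68, adjusted p = 0.00935). *Unc93b1*, which carries these receptors from the endoplasmic reticulum, had a median of 635.5 CPM in naive and 685.7 CPM at day 12 at 3 months (log2 fold change -0.06, SE 0.24, adjusted p = 0.92). Its day 12 values at 9 and 18 months were -0.23 and -0.25 (adjusted p = 0.616 and 0.561).

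The 5 adaptor genes had a median log2 fold change of -0.29, 0.26 and 0.14 at day 12, and their lowest adjusted p by edgeR over both days and all ages was 0.0841, for *Ticam2* at 9 months at day 12 (-0.69, SE 0.29), a gene named after its values were seen. *Myd88* was at -0.38, 0.49 and 0.34 (adjusted p = 0.29, 0.2 and 0.378) and *Ticam1*, which encodes TRIF, at 0.67, 0.26 and -0.27 (adjusted p = 0.35, 0.787 and 0.774). Of 15 kinases and ligases, 3 rose at 3 months, 2 rose at 9 months, and 2 rose and 2 fell at 18 months (median 0.15, 0.35 and 0.28), numbers near the 16.7%, 18.4% and 15.5% of all genes at 3 and 9 months. *Ikbke*, which encodes the kinase IKKε, was at 0 in all 7 naive libraries at 3 months. At day 12 it was at 19.02 to 106.1 CPM (median 50.84), 622-fold higher against the floor of 3 counts (adjusted p = 7.75e-10 by edgeR's test). It passed at day 12 and day 28 at each age. *Traf3* (1.65, adjusted p = 0.00081) and *Chuk* (0.57, adjusted p = 0.044) also rose at 3 months, whereas *Irak4* (0.41, adjusted p = 0.31) and *Traf6* (-0.19, adjusted p = 0.782) did not pass. *Irak1* and *Irak2*, named after their values were seen, were the genes that fell at 18 months.

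Of 8 transcription factors, 2 rose and 1 fell at 3 and 9 months and 1 rose and 1 fell at 18 months (median -0.06, 0.04 and -0.05), beside 16.7%, 18.4% and 15.5% of all genes. *Irf7*, a driver of type I interferon downstream of TLR7 and TLR9, rose at each age (2.11, 2.22 and 3.03, adjusted p = 0.000424, 0.00146 and 3.25e-06), and *Irf5*, which also acts downstream of these receptors, fell at each age (-0.60, -0.87 and -0.59, adjusted p = 0.00904, 0.000815 and 0.0173). *Nfkb2* rose at 3 and 9 months (1.28 and 1.79, adjusted p = 0.0204 and 0.00385). Of 9 inhibitors of Toll-like receptor signalling, 6, 5 and 5 rose and 0 fell at day 12 (median 0.76, 0.75 and 0.62), beside 16.7%, 18.4% and 15.5% of all genes in either direction. *Pik3ap1* rose at each age (1.17, 1.34 and 1.30, adjusted p = 7.03e-05, 9.83e-05 and 2.59e-05). *Tnip1* rose at 3 months (1.14, adjusted p = 0.0042), *Sigirr* at no more than 6.594 CPM in any 3-month day 12 library (3.50, SE 1.18, adjusted p = 0.0322), and *Tnfaip3*, which encodes A20, at 3 and 9 months (0.62 and 0.72, adjusted p = 0.0488 and 0.0434).

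Of 12 genes for cytokines and other products induced downstream, 5, 8 and 9 rose and 1 fell at day 12 (median 1.86, 3.27 and 3.17), again beside 16.7%, 18.4% and 15.5% of all genes. *Cxcl9*, a T cell chemoattractant induced by interferon-γ, went from 0 to 1.733 CPM in naive to 127.8 to 945.2 CPM at day 12 at 3 months (log2 fold change 9.75, SE 1.01, adjusted p = 1.68e-10). *Ccl5* went from a median of 102.7 to 2419 CPM (4.69, SE 0.60, adjusted p = 2.79e-08); T cells also express it. At 3 months *Ptgs2* was at 0 in all 7 naive libraries and reached 3.815 CPM at day 12. Against the floor of 3 counts it was 14.7-fold higher (adjusted p = 0.0087 by edgeR's test). Its naive counts were 0 at each age. It thus passed the low-count filter through injected libraries, and this test for a rise is not independent of that filter. The gene that fell at each age was *Il6*, named after its values were seen (-4.09, -5.38 and -3.21, adjusted p = 8.69e-05, 2.74e-05 and 0.00275), from 13.14 to 33.26 CPM in naive to 0 to 2.912 CPM at day 12 at 3 months. At day 28 the numbers that rose and fell at 3, 9 and 18 months were 1 and 1, 3 and 1, and 2 and 1 for these products, 0, 2 and 1 risen and 0 fallen for the inhibitors, and at most 2 in either direction for each of the other lists, where 2.77%, 4.07% and 4.81% of all genes passed. Setting genes at 0 in a whole group to the floor of 3 counts changed none of the day 12 medians of the lists.

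The genes most like *Tlr2* over the 62 libraries, by Pearson correlation of log2 CPM, were *Lgals3bp* (0.873), *Mmp14* (0.863) and *Axl* (0.86), and within groups the values were 0.704, 0.696 and 0.552. Those most like *Tlr9* were *Mettl15* (0.61), *Haus3* (0.605) and *Zwint* (0.594), with 0.604, 0.621 and 0.604 within groups and Spearman values of 0.397, 0.469 and 0.357. *Tlr9* and *Unc93b1* stood at -0.117 and *Tlr5* and *Tlr8* at 0.286. These values describe libraries that share depth, batch and group, and no test was made of them.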

How the data were processed

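RNA of 600 sorted cells from each retina was converted to cDNA with SMART-Seq v4 and sequenced single-end. Per the labels and the study's methods, the authors ran bcl2fastq 2.20, aligned reads with STAR 2.7.8a to mm10, counted them with featureCounts on UCSC refGene, and deposited whole-number read counts before and after ComBat_seq (R 4.2.2) had adjusted for collection batch. The corrected counts were used for levels and tests, and the uncorrected counts within batches. Receptors, lists and tests were chosen with earlier results of these data known. Levels are CPM, counts over TMM-scaled library sizes. One edgeR 4.0.16 quasi-likelihood fit (R 4.3.3, limma 3.58.1) covered 62 libraries in 18 groups of age, sex and day, after filterByExpr. Thresholds were an adjusted p of 0.05 against naive and between days and of 0.1 for ages, sexes and differences of changes. DESeq2 1.42.0, other filters, batches, leaving out each library and a replicate block were alternatives. The script was checked on simulated counts. Genes named in each list were the 3 with the largest called change at day 12 at 3 months, plus *Myd88*, *Unc93b1*, *Ticam1*, *Ly96*, *Cd14*, *Cd180*, *Irak4*, *Traf6*, *Irf7* and *Tnfaip3*, and for *Tlr2* and *Tlr9* the 3 most correlated genes. Of the listed genes, *Lbp*, *Lrrc32*, *Il12a* and *Il10* did not pass the filter, and *Tasl* was not found under that symbol. The microglia and the B cell marker list each leave out 1 gene that is not reported here. Each library came from a separate mouse. Replicate numbers did not pair libraries: over 464 pairs with the same number the mean correlation of deviations was -0.0114, against 0.00407 for other numbers. Total counts were 1468478 to 9836173 per library. Gene positions and promoter windows are RefSeq's for GRCm38.p6, the build of mm10, and exon lengths, shared stretches and overlapping genes come from GENCODE transcripts of that build.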

Additional observations from a re-analysis of the deposited data

Results flagged for a closer look

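In 26 of 175 groups of 4 to 10 libraries examined, the highest or lowest library of a receptor lay apart from the rest by Dixon's criterion. Its rate of about 1 in 20 by chance holds for normally distributed values. Some of these groups were mostly at 0, so the 26 cannot be set against that rate. The groups by age and by age and sex also share libraries. Among naive libraries, the 3-month female library 4 stood apart for *Tlr1* (104.4 CPM, over both sexes and among females) and *Tlr2* (257.5 CPM). The 9-month male library 2 stood apart for *Tlr2* (242.2 CPM) and *Tlr6* (56.05 CPM), and the 18-month female library 1 for *Tlr2* (280.4 CPM), *Tlr6* (41.17 CPM) and *Tlr8* (28 CPM). The 18-month male library 1 stood apart for *Tlr7* (180.5 CPM, over both sexes and among males) and *Tlr13* (199.1 CPM), and among males for *Tlr2* (154.5 CPM) and *Tlr3* (127.3 CPM).

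At day 12, the 3-month female library 2 stood apart for *Tlr3* (158.6 CPM, over both sexes and among females) and the 3-month female library 3 for *Tlr8* among females (1.027 CPM). The 18-month female library 2 stood apart for *Tlr8* (3.834 CPM, in both groupings) and the 18-month female library 1 for *Tlr13* among females (171.5 CPM). At day 28, the 3-month female library 1 stood apart for *Tlr1* (41.68 CPM, the lowest) and *Tlr5* (2.046 CPM), the 3-month female library 2 for *Tlr4* (102.6 CPM), the 9-month female library 1 for *Tlr5* (2.544 CPM, in both groupings), the 18-month male library 1 for *Tlr5* (2.389 CPM) and the 18-month male library 4, the one with 2 day labels, for *Tlr3* among males (113.3 CPM).

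The 2 libraries that were not part of the comparisons were read from the uncorrected counts, where they exceeded the highest naive library of their labelled age for 2 of 10 and 1 of 10 receptors. Neither matched its sex label, so their age and day labels are in doubt too. The 18-month female day 28 library 1 held *Tlr1* at 150 CPM and *Tlr2* at 455 CPM, against highest naive values of 123 and 425.8 CPM (n = 7). The 9-month male day 28 library 1 held *Tlr2* at 284.6 CPM, against 204.1 CPM (n = 5), a value under the highest naive library of 18 months.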

How the results depend on the processing

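Over all alternatives run, *Tlr2* at day 12 kept its sign at each age. It lost its call at 18 months in the first batch alone and, tested against a log2 fold change of 1, at each age (adjusted p = 0.233, 0.148 and 0.913). With DESeq2, receptors beyond 2-fold went from 3 to 0, calls by sex at day 28 from 0 to 2 and calls between naive sexes from 0 to 1. With no filter on low counts, calls by sex were 12 at day 12 (7 in the main fit) and 3 at day 28, and 1 between naive sexes. With a batch term on uncorrected counts, 2 day 12 calls were lost by edgeR's test. These were *Tlr1* at 9 months (0.68, adjusted p = 0.0559) and *Tlr8* at 3 months (-2.61, adjusted p = 0.0612). On uncorrected counts with no batch term, calls were 2 at 3 months at day 12 (4 in the main fit), 0 at 18 months at day 28 (1), 2 by sex at day 12 and 1 from day 12 to day 28 (3). The first batch alone gave 2 calls at 3 months and 0 at 18 months at day 12, 1 at 9 months and 0 at 18 months at day 28, 2 and 3 by sex at days 12 and 28, 0 from day 12 to day 28, 6 and 2 for changes that differ between sexes and ages, 2 between ages and 7 between naive sexes. The second batch alone gave 1 call at 3 months at day 12, 1 at 9 months at day 28, 0 beyond 2-fold, 1 by sex at day 28 and 1 from day 12 to day 28. One fit per age gave 1 call by sex at day 28. Tested against a log2 fold change of 1, calls were 1 at each age at day 12 and 0 at 18 months at day 28. The 18-month day 28 call was also lost (0) with the 2-label library at day 12 and without 2 doubted libraries, an alternative added after seeing the data. The cause of these differences was not tested, and the single batches also held fewer libraries.

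Within the batches *Tlr9* moved to between -1.81 and 3.93 and turned sign in the first at 9 months at day 12 (3.35) and in the second at 3 months at day 12 (0.24) and day 28 (0.12), 9 months at day 28 (-0.18) and 18 months at day 12 (-0.30). At 18 months at day 28 it was -0.04 with the 2-label library at day 12 and -0.03 without 2 doubted libraries. Leaving out 1 library in turn, it ranged from -0.58 to 0.02 at 3 months at day 12, and at 18 months from -0.20 to 0.53 at day 12 and from -0.07 to 0.65 at day 28. In those refits calls ranged from 3 to 4, 2 to 4 and 2 to 3 at day 12 and from 0 to 0, 0 to 1 and 0 to 1 at day 28 (3, 9 and 18 months), the 9-month day 28 call arising without female day 28 library 1. They ranged from 2 to 4 beyond 2-fold, 6 to 8 and 0 to 0 by sex at days 12 and 28, and 1 to 3 from day 12 to day 28 (1 without 9-month male day 12 library 1). Calls for ages, sexes in naive and differences of changes were 0 throughout.

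The replicate numbers are not pairs. With the replicate number as a block, 0 receptors were called at 18 months at day 28, *Tlr2* there being 0.75 (adjusted p = 0.0519); *Tlr1* at 9 months (0.69, adjusted p = 0.053) and *Tlr8* at 3 months (-2.73, adjusted p = 0.0567) at day 12 lost their calls too, and 7 of 62 libraries correlated best with their own number. Over all genes, day 28 calls at 3 months were 376 in the main fit, 630 with no filter, 223 on uncorrected counts with no batch term, 763 with one fit per age, 62 in the first batch and 237 without male naive library 1. At 9 months they were 553, with 878 by DESeq2, 252 on uncorrected counts with no batch term, 276 with one fit per age, 941 in the first batch and 146 without male naive library 2, which also took day 12 calls from 2493 to 1427. At 3 months at day 12 the batches gave 540 and 1230 calls against 2269, and at 18 months at day 28 the first gave 2013 against 654. Depth limits *Tlr5*, *Tlr8* and *Tlr9* most, since 3 counts are worth up to 2.12 CPM.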

Other observations

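The other mouse members of the family in the count table, *Tlr11* and *Tlr12*, which bind profilin of protozoan parasites, were low. *Tlr12* had naive medians of 3.173, 3.428 and 3.18 CPM at 3, 9 and 18 months and day 12 medians of 5.999, 5.33 and 4.172 CPM. Its day 12 change passed edgeR's test at 9 months (log2 fold change 1.86, SE 0.64, adjusted p = 0.0344), where 1 of 7 libraries stood at 55.26 CPM, and was 1.38 at 3 months (SE 0.55, adjusted p = 0.0777) and 0.56 at 18 months (SE 0.56, adjusted p = 0.562). *Tlr11* had naive medians of 1.644, 0.5749 and 0.9937 CPM and day 12 medians of 4.683, 5.296 and 3.404 CPM, with log2 fold changes of 1.70, 2.35 and -0.46 that did not pass (adjusted p = 0.166, 0.0856 and 0.78). At 18 months its highest naive library stood at 29.64 CPM.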
